A study of Mus musculus with 12 samples.

Results

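The cytosolic ribosomal protein genes encode the proteins of the large and the small ribosomal subunit, and were examined here in mouse cells treated with olanzapine, an atypical antipsychotic, with or without a vitamin D3 metabolite. Members were matched by gene symbol alone (Rpl or Rps with a number, Rplp0 to Rplp2, and Rpsa). No measured value entered this match, but earlier results of these data were known when the group was chosen. In all, 83 of 18539 genes matched. All 83 were in the hepatocyte table and in the adipocyte table, each of 17742 genes, and 81 were in the C2C12 table of 16908 genes, from which Rpl39l and Rpl32l were missing. Poly(A) RNA was sequenced from 12 libraries, 1 for each of 4 treatments in 3 cell types. The cells were primary hepatocytes from male C57BL6/J mice, primary adipocytes grown from C57BL6/J preadipocytes of the subcutaneous fat of neonatal pups, and C2C12, an established mouse myoblast line that was differentiated into myotubes. In the combined groups, calcifediol (the circulating form of vitamin D3) or calcitriol (its active form) was given for 24 h and then together with olanzapine for 12 h. The olanzapine group had vehicle for 24 h and olanzapine for 12 h, and the vehicle group had dimethyl sulfoxide for 36 h, the solvent that every group received. Calcifediol was used at a higher concentration than calcitriol, so their values are given side by side without a comparison. Each library was 1 culture sample, and hepatocytes were treated in another medium than the adipocytes and C2C12 cells, so that cell type, medium and preparation cannot be told apart.

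Each ribosome holds 1 copy of nearly every ribosomal protein, and the genes are therefore transcribed at high and coordinated levels in most cells. Their mRNAs begin with a 5′ terminal oligopyrimidine (TOP) tract, a C followed by a run of C and T, through which mTORC1 and the RNA-binding protein LARP1 adjust their translation and stability to nutrients and growth signals. Because their levels vary little in many settings, some members serve as reference genes for qRT-PCR, and Rplp0 had that role in the study.

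The start sites of a few members are shown because the TOP tract is the sequence that these genes share. In each line, 15 bases before and 15 bases from the RefSeq start (GRCm38.p6) are given on the strand of the gene, and capitals mark the unbroken run of C and T that includes the first transcribed base.
Rps6, chr4:86857353-86857382, minus strand: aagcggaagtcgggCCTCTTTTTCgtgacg
Rplp2, chr7:141447636-141447665, plus strand: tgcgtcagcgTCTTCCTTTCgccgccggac
Rpl35, chr2:39005117-39005146, minus strand: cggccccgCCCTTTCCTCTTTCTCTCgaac
Rpl38, chr11:114668565-114668594, plus strand: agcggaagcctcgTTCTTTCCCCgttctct
Rps27, chr3:90213634-90213663, minus strand: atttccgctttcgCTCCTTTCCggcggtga
Rps27l, chr9:66946071-66946100, plus strand: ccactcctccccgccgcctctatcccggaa
Rplp0, chr5:115559452-115559481, plus strand: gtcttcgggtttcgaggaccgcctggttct
Rps27, a protein of the small subunit, starts inside such a run, whereas the window of its paralog Rps27l has none at the annotated start, nor has that of a second annotated start of the gene. The same holds for Rplp0, whose annotated start lies outside a C and T run. RefSeq promoters were found for 63 of the 83 members. A C at an annotated start followed by at least 4 bases that are C or T, on the strand of the gene, was present in 14 of the 63 members (22.2%) and in 3.01% of 27025 genes with a promoter. With the C allowed up to 5 bases to either side of the start, the shares were 47.6% of the members and 21.2% of all genes. A missing tract says only that these letters are not at the annotated start.

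The libraries held 15641434 to 19348338 counts. The 7 hepatocyte markers summed to 71184 to 75567 CPM (counts scaled to the library total) in hepatocytes, the 7 adipocyte markers to 13710 to 15707 CPM in adipocytes and the 7 skeletal muscle markers to 17008 to 18641 CPM in C2C12 cells, and each of these lists was at most 71.5 CPM in the other cell types. The adipocyte libraries also held 18460 to 20540 CPM of fibroblast and preadipocyte markers, among them Col1a1 and Pdgfra. In bulk RNA, fewer cells of a type and less RNA per cell cannot be told apart.

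Of all counts of a library, the members took the largest share in C2C12 cells and the smallest in adipocytes. In hepatocytes, the share of counts was 3.96% with calcifediol plus olanzapine, 3.57% with calcitriol plus olanzapine, 3.66% with olanzapine and 3.63% with vehicle. In adipocytes, it was 2.98%, 2.59%, 2.41% and 2.99% in the same order of treatments. In C2C12 cells, it was 4.54%, 4.22%, 4.77% and 4.60%. The 95% Clopper-Pearson intervals reached at most 0.01 percentage points to either side and cover counting error only, since there was 1 library per condition. Per transcript length, as TPM (FPKM scaled to the same sum in every library), the members made up 9.05% to 9.67% of hepatocyte, 7.54% to 8.69% of adipocyte and 12.8% to 13.9% of C2C12 transcripts. Without the 20 most abundant genes, the shares of counts in hepatocytes (4.48% to 4.97%) and C2C12 cells (4.39% to 4.94%) overlapped. Adipocytes remained the lowest, at 2.98% to 3.61%.

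**Figure D1:**
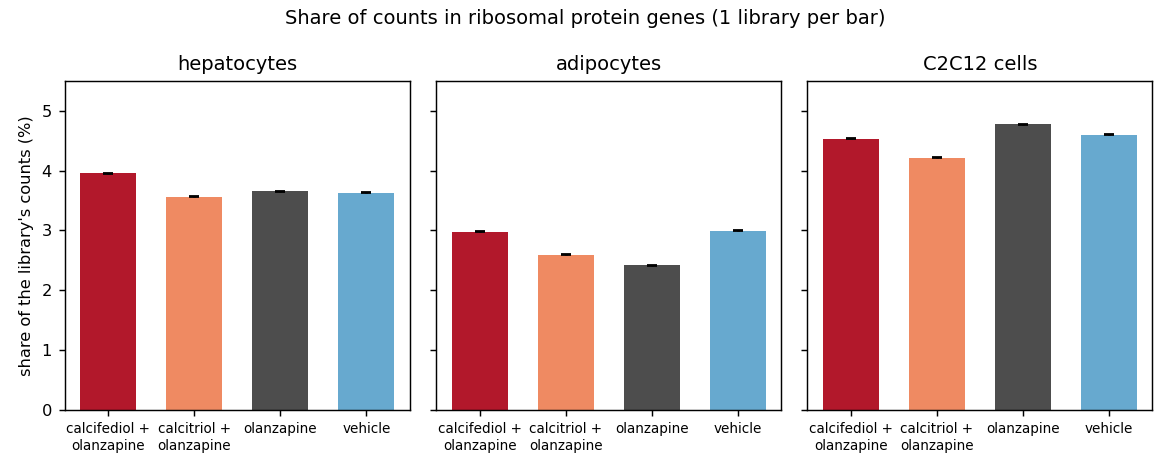
Share of each library's counts that fell on ribosomal protein genes (y axis, percent), with 1 bar per library and treatments along the x axis; error bars are 95% Clopper-Pearson intervals. The bar of olanzapine is the lowest of the adipocyte libraries, at 2.41%, and the highest of the C2C12 libraries, at 4.77%.

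In adipocytes, nearly all members were lower with olanzapine than with vehicle, and higher with calcifediol plus olanzapine than with olanzapine alone. Most were also higher with calcitriol plus olanzapine. Values are log2 ratios of counts scaled to the library total, with a pseudocount of 0.5, over the members with at least 1 TPM in any library of the cell type. With olanzapine over vehicle, 80 of 81 members were below 0 and the median was -0.31, against -0.03 over all 11804 genes tested. With calcifediol plus olanzapine over olanzapine, 79 of 81 were above 0 (median 0.30, against -0.01 over all genes), and with calcitriol plus olanzapine over olanzapine 67 of 81 were above 0 (median 0.09, against -0.02). These 3 signs held under TMM, median-of-ratios and TPM scaling. They turned round when counts were scaled to Rplp0, itself a member, which moves all genes of a library alike. The median of all genes was then 0.35 with olanzapine over vehicle, against 0.07 over the members. It was -0.38 with calcifediol plus olanzapine (members -0.07) and -0.22 with calcitriol plus olanzapine (members -0.10), so the members kept their side of all genes. The 3 comparisons share the olanzapine library, which held the lowest value of the 4 adipocyte libraries in 67 of 81 members, and in 2953 of 11804 genes. Exact 95% counting intervals lay below 0 for 77 of 81 members with olanzapine over vehicle, but they hold no variation between cultures. The adipocyte markers summed to 13710 CPM with calcifediol plus olanzapine, 13792 with calcitriol plus olanzapine, 14349 with olanzapine and 15707 with vehicle, and the fibroblast and preadipocyte markers to 19164, 20540, 18460 and 18976 CPM. The part of either in the result was not tested. None of the 81 members passed the rule of the study for single pairs of libraries (Audic-Claverie test, FDR of at most 0.05 and at least 2-fold) in any of the 3 comparisons. That rule called 1.52% of all genes for calcifediol plus olanzapine, 0.974% for calcitriol plus olanzapine and 1.22% for olanzapine over vehicle.

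Rpl37, a large subunit protein, differed most among the adipocyte libraries. It had 3282 counts with calcifediol plus olanzapine, 2514 with calcitriol plus olanzapine, 2172 with olanzapine and 3312 with vehicle, or 191, 158, 128 and 212 CPM. The vehicle and calcifediol libraries were the high ones and the olanzapine library the low one. Its log2 ratio was -0.72 with olanzapine over vehicle, 0.57 with calcifediol plus olanzapine over olanzapine and 0.30 with calcitriol plus olanzapine over olanzapine, the value farthest from 0 in that direction in each comparison. Rpl38, also of the large subunit, followed in olanzapine over vehicle with 153 CPM in the olanzapine library against 226 CPM in the vehicle library (log2 ratio -0.56). Rpl28 was second with calcitriol plus olanzapine, at 8314 counts against 7299 counts with olanzapine (0.28). At the other end, Rpl17 was the 1 member above 0 with olanzapine over vehicle (6719 counts against 6033 counts, 0.04), followed by Rps27 at -0.04. Rpl39l, a paralog of Rpl39, was the lowest with calcifediol plus olanzapine (170 counts against 209 counts with olanzapine, -0.32), and Rpl7l1 was the second lowest at -0.02. Rps25 and Rpl17 were the lowest with calcitriol plus olanzapine, both at -0.15.

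In hepatocytes, the members were higher with calcifediol plus olanzapine than with olanzapine and otherwise near 0. With calcifediol plus olanzapine over olanzapine, 78 of 80 members were above 0 (median 0.14, against -0.01 over 10963 genes), a sign that held under each scaling tried, at 0.0725 with TPM and 0.0711 with scaling to Rplp0. With calcitriol plus olanzapine over olanzapine, 20 of 80 were above 0 (median -0.04, against 0.00), and with olanzapine over vehicle 49 of 80 (median 0.04, against 0.00). The calcifediol library was the highest of the 4 in 73 of 80 members and in 2817 of 10963 genes. Macrophage markers summed to 325 CPM in that library against 413 CPM in the olanzapine library. Fibroblast and preadipocyte markers summed to 25.7 CPM in the calcitriol library against 2.73 CPM in the olanzapine library. The part of either in the results was not tested. Members farthest from 0 included Rpl22l1, a paralog of Rpl22, with 423 counts with calcifediol plus olanzapine against 317 counts with olanzapine (log2 ratio 0.35), and Rpl35a (3063 against 2389 counts, 0.29). Rpsa (0.00) was among the lowest there. Rplp2 was the lowest member with calcitriol plus olanzapine (3263 counts against 3813 counts with olanzapine, -0.30), before Rpl36a (-0.23), and Rps26 (0.13) and Rpl7l1 (0.09) were the highest. With olanzapine over vehicle, Rpl14 (0.22) and Rps12 (0.20) were the highest and Rplp1 (-0.17) and Rps14 (-0.17) the lowest. None of the 80 members passed the rule for pairs of libraries, which called 0.566%, 0.702% and 0.356% of all genes for calcifediol plus olanzapine, calcitriol plus olanzapine and olanzapine over vehicle.

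In C2C12 cells, the members were lower with either metabolite plus olanzapine than with olanzapine. Both comparisons share the olanzapine library, which held the highest value of the 4 in 48 of 80 members and in 2524 of 12124 genes. With calcitriol plus olanzapine over olanzapine, 6 of 80 members were above 0 (median -0.15, against 0.02 over 12124 genes). That sign turned round only with scaling to Rplp0 (0.02, against 0.19 over all genes). With calcifediol plus olanzapine over olanzapine, 22 of 80 were above 0 (median -0.07, against 0.03), and with olanzapine over vehicle 61 of 80 (median 0.06, against -0.01). Both kept their sign under every scaling, although the olanzapine median was 0.0217 with TPM and 0.0065 with scaling to Rplp0. Both values are smaller than 0.0432, the median half-width of the counting interval of a single member. The calcifediol median was -0.0369 with TPM, also smaller in size than the half-width of that comparison, 0.0435. Such a width is not the error of a median over the members. The fibroblast and preadipocyte markers summed to 11280 and 12092 CPM with calcifediol and calcitriol plus olanzapine, against 8963 CPM with olanzapine and 8906 CPM with vehicle, and their part in the result was not tested. Many other genes differed between these libraries: the rule for pairs of libraries called 11.6% of all genes for calcifediol plus olanzapine and 8.36% for calcitriol plus olanzapine, but 0.313% for olanzapine over vehicle, and 0 of 80 members in each. Rpl34 was the lowest member with calcitriol plus olanzapine, at 2147 counts against 2926 counts with olanzapine (log2 ratio -0.46), though its copy Rpl34-ps1, which shares its reads, had 1528 and 1738 counts in these libraries and was not added. Rpl37 followed (-0.37), while Rpl7l1 (0.15) and Rps27 (0.13) were the highest. Rpl22l1 was the lowest with calcifediol plus olanzapine (261 counts against 350 counts, -0.39), followed by Rpl36 (-0.30), and Rps3 (0.19) and Rpl23 (0.18) were the highest. With olanzapine over vehicle, Rpl27 (0.26) and Rpl36 (0.25) were the highest, Rpl23 was second lowest (-0.31), and Rpl29 was the lowest (136 counts against 189 counts, -0.43), a gene whose reads are shared with a copy in these cells.

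**Figure D2:**
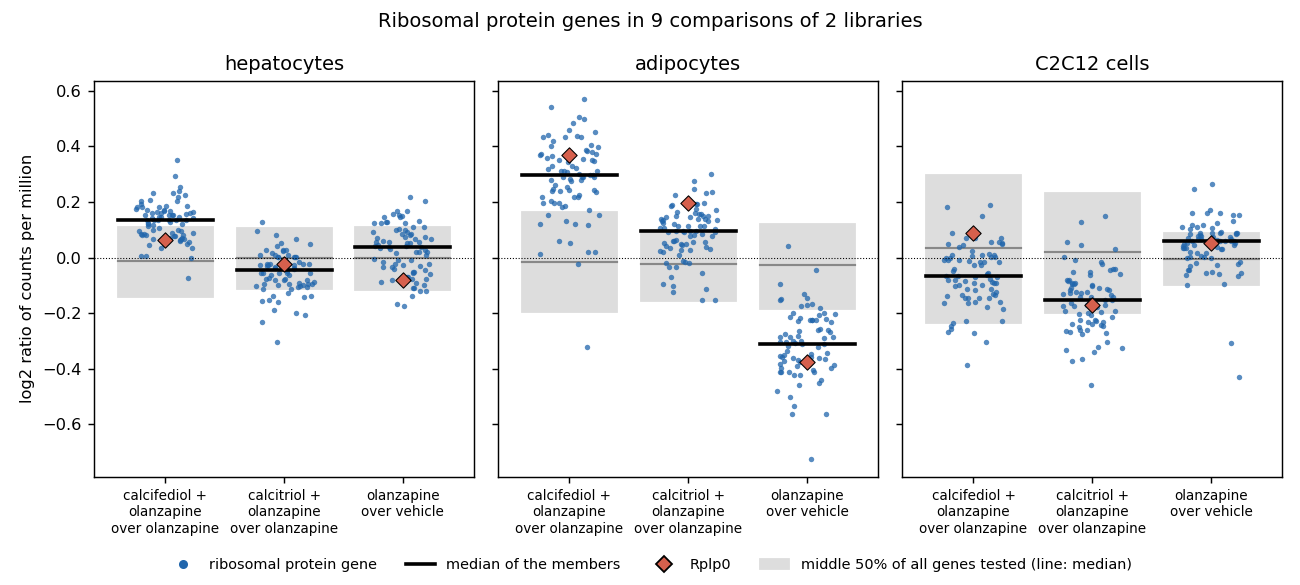
Log2 ratio of CPM between 2 libraries (y axis) for each ribosomal protein gene (blue points) in the 9 comparisons (x axis), with the median of the members (black line), Rplp0 (red diamond) and the middle 50% and median of all genes tested (gray). In adipocytes, the members lie around 0.30 with calcifediol plus olanzapine over olanzapine and around -0.31 with olanzapine over vehicle. Scaling to Rplp0 turns these signs round, but moves the median of all genes as well, to -0.38 and 0.35.

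Within each comparison, the SD of the members' log2 ratios was above the median half-width of a member's counting interval. The SD was 0.07 to 0.09 in the 3 hepatocyte comparisons, 0.10 to 0.14 in the adipocyte and 0.10 to 0.11 in the C2C12 comparisons, against a median half-width of the counting interval of 0.04 to 0.06. Other genes with like counts were not set beside the members here. Medians of large and small subunit members had the same sign in all 9 comparisons. With olanzapine over vehicle in adipocytes, they were -0.30 over the large and -0.31 over the small subunit. The largest gap was with calcifediol plus olanzapine over olanzapine in adipocytes, 0.26 and 0.33. Across the members, Spearman's rho of the log2 ratio with the effective transcript length was between -0.34 and 0.28 in the 9 comparisons. The lowest was that of calcifediol plus olanzapine over olanzapine in hepatocytes, and the highest that of the same comparison in C2C12 cells. For olanzapine over vehicle in adipocytes, rho was -0.03. It is given as a description, since all members of a comparison come from the same 2 libraries.

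The P stalk, which recruits the GTPases of translation to the large subunit, is formed by Rplp0 and the acidic proteins of Rplp1 and Rplp2. Rplp0 had 1317 CPM with calcifediol plus olanzapine, 1169 with calcitriol plus olanzapine, 1020 with olanzapine and 1324 with vehicle in adipocytes. The olanzapine library was again the low one, and its log2 ratios were -0.38 with olanzapine over vehicle, 0.37 with calcifediol plus olanzapine over olanzapine and 0.20 with calcitriol plus olanzapine over olanzapine. In hepatocytes, Rplp0 had 1164, 1094, 1113 and 1176 CPM in the same order, with no log2 ratio beyond 0.08 in size. In C2C12 cells it had 2184, 1821, 2052 and 1979 CPM, a log2 ratio of 0.09 with calcifediol plus olanzapine over olanzapine and of -0.17 with calcitriol plus olanzapine over olanzapine. A value set against Rplp0 in the same library moves by these amounts through Rplp0 alone. Rplp1 had 432, 354, 328 and 436 CPM in adipocytes and Rplp2 had 315, 243, 242 and 281 CPM, so that for Rplp2 the calcitriol library was as low as the olanzapine library.

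Rpl5 and Rpl11 form, with 5S rRNA, the particle that binds MDM2 and stabilizes p53 when ribosome assembly is disturbed. In adipocytes, Rpl5 had 362 CPM with calcifediol plus olanzapine, 331 with calcitriol plus olanzapine, 310 with olanzapine and 410 with vehicle, and Rpl11 had 317, 291, 273 and 350 CPM. In both, the vehicle library was the highest and the olanzapine library the lowest. In hepatocytes, Rpl5 ranged between 574 and 671 CPM and Rpl11 between 332 and 393 CPM, each highest with calcifediol plus olanzapine, and in C2C12 cells between 499 and 540 CPM and between 320 and 350 CPM.

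Among small subunit members, Rps3, at the site where mRNA enters the ribosome, had 332 CPM with calcifediol plus olanzapine, 253 with calcitriol plus olanzapine, 237 with olanzapine and 322 with vehicle in adipocytes. Rpsa, the laminin receptor homolog of the small subunit, had 1086, 992, 918 and 1138 CPM there. Both had their lowest value with olanzapine. In C2C12 cells, Rpsa had 1810 CPM and 1811 CPM with calcifediol and calcitriol plus olanzapine, against 2187 CPM with olanzapine and 2264 CPM with vehicle, so that the 2 metabolite libraries were the low ones. Rps27a, which encodes ubiquitin fused to a small subunit protein, had 130, 103, 101 and 129 CPM in adipocytes. Of the large subunit, Rpl13a, whose protein silences inflammatory mRNAs when released from the ribosome in human cells, had 758, 553, 561 and 720 CPM in adipocytes, and Rpl32 had 332, 302, 268 and 339 CPM. Rpl13a was as low with calcitriol plus olanzapine as with olanzapine.

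Several other gene lists had medians of the same sign in adipocytes. Nuclear subunits of oxidative phosphorylation, which make ATP in mitochondria, had -0.25 (69 of 74 below 0) with olanzapine over vehicle and 0.23 (71 of 74 above 0) with calcifediol plus olanzapine over olanzapine, and proteasome subunits, which degrade ubiquitinated proteins, had -0.22 (35 of 37 below 0) and 0.15 in these comparisons. Mitochondrial ribosomal proteins had -0.13 and 0.14. The lists for rRNA synthesis and ribosome assembly (-0.11 and 0.05) and for initiation factors and other TOP mRNA genes (-0.11 and 0.06) lay closer to the median of all genes, and the kinases and regulators of mTORC1 were at -0.02 and -0.08. Elongation factors had -0.10 (5 of 6 below 0) and 0.23 (5 of 6 above 0). Scd1, the stearoyl-CoA desaturase, was the most abundant gene of the adipocyte libraries, with 4.49% of counts with calcifediol plus olanzapine, 5.16% with calcitriol plus olanzapine, 5.72% with olanzapine and 4.51% with vehicle. Without the 20 most abundant genes in the library total, the median of the members was -0.28 with olanzapine over vehicle. In C2C12 cells, the lists went apart: with calcifediol plus olanzapine over olanzapine, genes of rRNA synthesis and assembly had a median of -0.18 (40 of 49 below 0) and subunits of oxidative phosphorylation of 0.21 (71 of 73 above 0). The median of the elongation factors was 0.09 there (5 of 7 above 0). In hepatocytes, medians in that comparison were 0.16 for subunits of oxidative phosphorylation, 0.12 for rRNA synthesis and assembly, 0.01 for elongation factors and -0.02 for mTORC1 regulators.

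**Figure D3:**
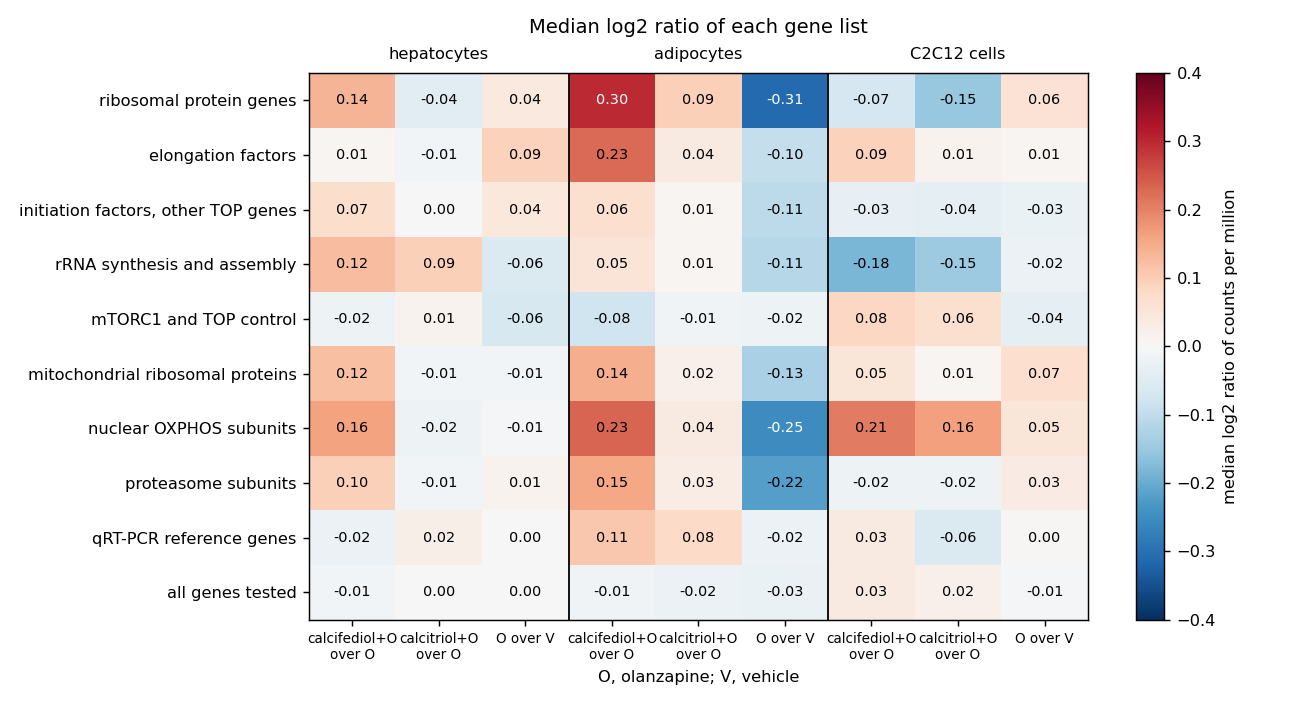
Median log2 ratio of CPM (number and color) over each gene list (y axis) in the 9 comparisons (x axis; O, olanzapine; V, vehicle). In adipocytes with olanzapine over vehicle, ribosomal protein genes (-0.31), oxidative phosphorylation subunits (-0.25) and proteasome subunits (-0.22) have the lowest medians of the lists drawn. All genes tested have -0.03. Scaling to Rplp0 turns the sign of the ribosomal protein genes (0.07), and all genes then have 0.35.

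An effect of treatment common to hepatocytes, adipocytes and C2C12 cells was tested with 1 additive model over all 12 libraries (edgeR quasi-likelihood test, cell type and treatment as terms, Benjamini-Hochberg over 13331 genes, FDR of at most 0.05). None of the 80 members tested passed for olanzapine over vehicle, calcifediol plus olanzapine over olanzapine or calcitriol plus olanzapine over olanzapine, where 0.0%, 0.0225% and 0.0525% of all genes were called. At an unadjusted p below 0.05, 0, 4 and 2 members passed, and DESeq2 called 0 in each. The fitted log2 fold changes lay below 0 in 76 of 80 members for olanzapine over vehicle (median -0.08), above 0 in 79 of 80 for calcifediol plus olanzapine over olanzapine (median 0.11) and below 0 in 70 of 80 for calcitriol plus olanzapine over olanzapine (median -0.04). The medians of all genes were -0.01 in each. These values rest on single libraries: without the adipocyte olanzapine library, 48 of 80 were above 0 for olanzapine over vehicle (median 0.01), 54 of 80 for calcifediol plus olanzapine over olanzapine (median 0.03) and 3 of 80 for calcitriol plus olanzapine over olanzapine (median -0.13). Without the adipocyte vehicle library, 34 of 80 were above 0 for olanzapine over vehicle (median -0.01), and without the C2C12 olanzapine library 58 of 80 were above 0 for calcitriol plus olanzapine over olanzapine (median 0.03). Differences in response between the cell types enter the error of this model, with 3 libraries per treatment.

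Between cell types, with 4 libraries each, adipocytes had the lower levels. In the same model, a call needed an FDR of at most 0.05 and at least 1.5-fold. Of 80 members, 52 were lower and 0 higher in adipocytes over hepatocytes (median log2 fold change -0.68, against -0.08 over all genes), where 32.2% of all genes were called lower and 29.9% higher. In C2C12 cells over adipocytes, 41 were higher and 1 lower (median 0.62, against 0.37), where 41.0% and 22.6% of all genes were. In C2C12 cells over hepatocytes, 7 were higher and 6 lower (median -0.07, against 0.21), where 37.7% and 25.1% of all genes were. With TMM factors, which move the median of all genes by 0.14 in adipocytes over hepatocytes, by -0.12 in C2C12 cells over hepatocytes and by -0.27 in C2C12 cells over adipocytes, 31 members were lower in adipocytes over hepatocytes (38.8%, beside 28.0% of all genes) and 22 higher in C2C12 cells over adipocytes (27.5%, beside 32.3% of all genes, and so below the background). With DESeq2 size factors, C2C12 cells over hepatocytes had 5 members higher (6.25%, beside 34.1% of all genes) and 9 lower (11.25%, beside 28.8%). Of all genes, 51.2% of the calls in C2C12 cells over adipocytes were higher with these factors. This share was 53.7% with TMM factors, against 64.5% on library totals.

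Rps2, a small subunit protein at the mRNA entry, had the lowest fold change but one in adipocytes over hepatocytes. It had 989, 834, 732 and 925 CPM in adipocytes with calcifediol plus olanzapine, calcitriol plus olanzapine, olanzapine and vehicle, against 1950, 1816, 1716 and 1849 CPM in hepatocytes. The groups did not overlap, and the log2 fold change was -1.31 (SE 0.11, FDR 8.98e-07 by edgeR). Rps27l, a paralog of Rps27 that p53 induces in human cells, was lower by more, with 27.4 to 36.6 CPM in adipocytes against 72.9 to 85.1 CPM in hepatocytes (log2 fold change -1.55). Rpl12 (-1.19), Rps3 (-1.04) and Rpl5 (-1.03) followed. In C2C12 cells over adipocytes, Rpl8 led the higher members, with 962, 880, 1029 and 968 CPM in C2C12 cells against 319, 257, 236 and 288 CPM in adipocytes (log2 fold change 1.80, SE 0.09, FDR 2.67e-08 by edgeR). Rps2 (1.73), Rps15 (1.53), Rps27a (1.53) and Rpl26 (1.48) followed. In C2C12 cells over hepatocytes, Rps15 (1.05), Rpl8 (0.96), Rps27a (0.80), Rpl26 (0.79) and Rpl22 (0.75) were the highest, and Rps27l (-1.51), Rpl13a (-0.84), Rpl38 (-0.69) and Rps3 (-0.61) were among those called lower next to Rpl29. With the counts of near-identical copies added, Rpl29 was at -0.36 and fell short of 1.5-fold.

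The P stalk genes did not keep 1 order across the cell types. Rplp0 was higher in C2C12 cells over adipocytes (log2 fold change 0.73, FDR 3.6e-05 by edgeR) and was -0.15 in adipocytes over hepatocytes (FDR 0.17), a value that became 0.00 with TMM factors. Rplp1 was lower in adipocytes over hepatocytes (-0.68), whereas Rplp2 was 0.17 there and -0.29 in C2C12 cells over adipocytes, both short of 1.5-fold. Elongation factors were lower in adipocytes over hepatocytes in 6 of 6 genes, among them Eef2 (-0.81) and Eef1g (-0.99). Genes of rRNA synthesis and assembly were lower in 40 of 49 and higher in 0, and in C2C12 cells over adipocytes higher in 39 of 49 and lower in 0. Nuclear subunits of oxidative phosphorylation went the other way, with 60 of 74 higher and 1 lower in adipocytes over hepatocytes, and 58 of 74 lower and 2 higher in C2C12 cells over adipocytes.

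**Figure D4:**
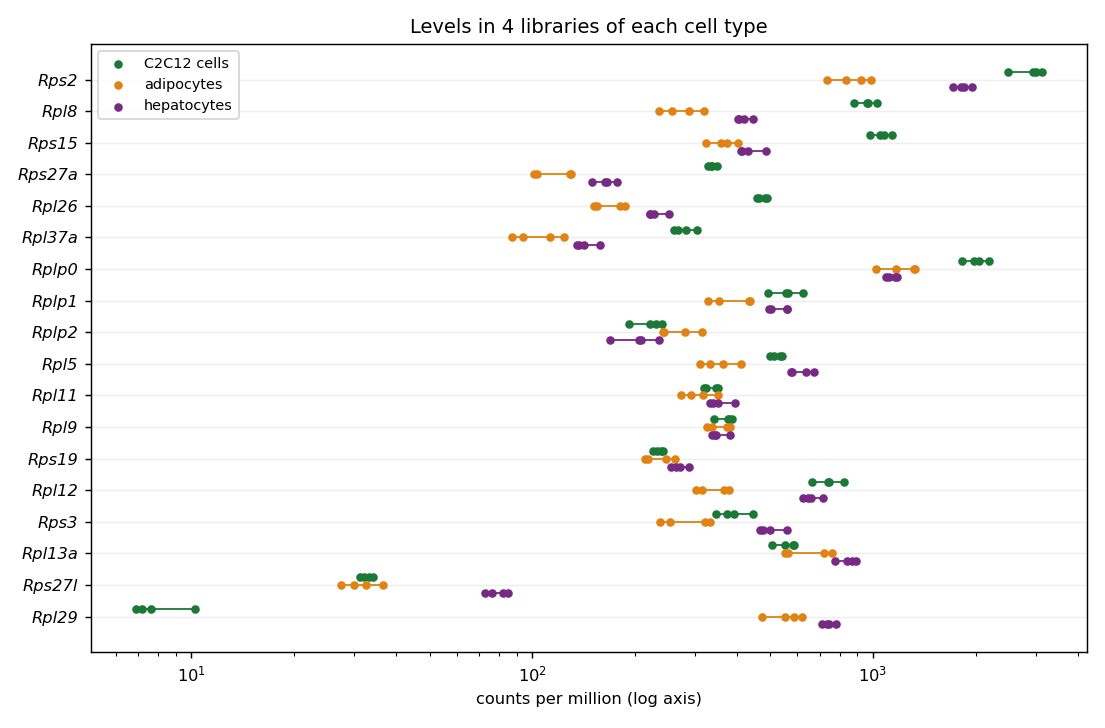
CPM (x axis, log scale) of named ribosomal protein genes (y axis) in the 4 libraries of C2C12 cells (green), adipocytes (orange) and hepatocytes (purple); each point is 1 library and lines join the lowest and highest. Rpl9 overlaps between all 3 cell types, while Rpl29 lies at 6.89 to 10.3 CPM in C2C12 cells and at 471 CPM or more elsewhere. In C2C12 cells, Rpl29 shares its reads with a near-identical copy, Gm8210. With copies summed, its log2 fold change was 0.28 in C2C12 cells over adipocytes and -0.36 over hepatocytes.

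Over the 12 libraries, Rpl9 was the steadiest of the 80 members with at least 100 counts in every library, with an SD of log2 CPM of 0.09. It had 373, 337, 326 and 381 CPM in adipocytes, 385, 342, 375 and 379 CPM in C2C12 cells and 380, 343, 346 and 337 CPM in hepatocytes in the order of treatments used above, so that the 3 cell types overlapped. Rps19 (0.13) was also among the 3 steadiest. Rplp0 had an SD of 0.40 over the 3 cell types and stood at place 56 of 80 in order of SD. Within C2C12 cells, in which the study ran its qRT-PCR, the SD of Rplp0 was 0.11. The medians there were 0.08 over the members and 0.13 over all genes. The largest SDs were those of Rpl29 (3.13, without the counts of its near-identical copy), Rpl8 (0.79) and Rps2 (0.76). The median SD was 0.33 over the members, 0.65 over 13 other genes often used as qRT-PCR references and 0.46 over the 7555 genes with 100 counts in every library. Within a cell type, the median SD of the members was 0.17 for adipocytes, 0.08 for C2C12 cells and 0.09 for hepatocytes, beside 0.11, 0.13 and 0.09 over all genes. Of the other reference genes, Ppia had the smallest SD over the 12 libraries (0.29).

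Per transcript length, the 5 most abundant members were Rpl41, Rps26, Rps2, Rpl35 and Rpl23a. Rpl41, which encodes a very short peptide of the large subunit, had 3098 to 3816 TPM in adipocytes, 3955 to 4527 TPM in hepatocytes and 7153 to 7829 TPM in C2C12 cells. Rps26 had 2626 to 2998 TPM, 2647 to 2912 TPM and 5952 to 6623 TPM in the same order of cell types. In TPM, Rps26 overlapped between adipocytes and hepatocytes and Rpl41 did not, and C2C12 cells lay apart in both. In the model on counts, Rpl41 was called lower in adipocytes over hepatocytes (log2 fold change -0.71). Rps26 was also lower there (-0.45), short of 1.5-fold. TPM rests on the transcript length that RSEM assigned, which for Rps3 was 1789 to 1795 bases and for Rps27 254 to 260 bases, so that the order of members by TPM also depends on which isoforms were counted.

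Most paralogs were far below their partners. Rpl3l, the striated muscle paralog of Rpl3, had 0 counts in all hepatocyte and adipocyte libraries, which allows at most 0.19 CPM at 3 counts. In C2C12 cells it had 11 counts with calcifediol plus olanzapine, 7 with calcitriol plus olanzapine, 3 with olanzapine and 2 with vehicle, against 13137 to 14377 counts of Rpl3. These counts are too few to compare the libraries. Rpl39l, known from testis, had 0 counts in hepatocytes and 170 to 209 counts in adipocytes (26.0 to 35.0 TPM), beside 486 to 606 TPM of Rpl39. Rpl7l1 had 54.4 to 66.7 TPM in adipocytes, 57.7 to 63.4 TPM in hepatocytes and 73.1 to 85.4 TPM in C2C12 cells, beside 926 to 1595 TPM of Rpl7. Rpl22l1 and Rpl22 were alike in level instead, with 57.2 to 79.4 TPM of Rpl22l1 beside 66.4 to 74.8 TPM of Rpl22 in adipocytes, and 65.9 to 80.6 TPM beside 52.4 to 65.1 TPM in hepatocytes. In C2C12 cells, Rpl22l1 had 66.3 to 86.6 TPM and Rpl22 had 129 to 140 TPM. Rps27l had 124 to 157 TPM in adipocytes, 140 to 150 TPM in C2C12 cells and 273 to 313 TPM in hepatocytes, beside 1352 to 2545 TPM of Rps27. Rpl32l had 0 counts in hepatocytes and adipocytes.

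Some members share their reads with processed copies elsewhere in the genome. A search of member transcripts (GENCODE M21, GRCm38) found 16 genes of the tables with at least 95% identity over at least 80% of their own length, and in sum these copies had 1.49% to 3.29% as many counts as the members. Nearly all of these counts fell on 4 copies, which were chosen after their values were seen. Rps6, the substrate of S6 kinase, had 261 to 500 counts per library, while Rps6-ps4 (chr2:75190995-75191854), whose 750 bases are identical to it, had 6031 to 16081 counts. Rps6 and Rps6-ps4 therefore cannot be told apart in these tables, and summed they were lower in adipocytes over hepatocytes (log2 fold change -1.08), as Rps6 alone was (-0.82).

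Rpl29 (chr9:106428889-106431568), of the large subunit, was the member with the largest difference between cell types. It had 7.17 CPM with calcifediol plus olanzapine, 6.89 with calcitriol plus olanzapine, 7.64 with olanzapine and 10.3 with vehicle in C2C12 cells, against 588, 551, 471 and 620 CPM in adipocytes and 781, 733, 745 and 707 CPM in hepatocytes. Its processed copy Gm8210 (chr1:43189052-43189773) had 11740, 11635, 12980 and 12039 counts in C2C12 cells and at most 13.0 counts in any other library. The groups are fully apart in both genes, in opposite directions. The coding sequences differ at 3 of 483 aligned positions. The stretch around the first of them, bases 58 to 87 of the coding sequence, is shown as an example of how little the pair differs, with the differing base in capitals.
Rpl29: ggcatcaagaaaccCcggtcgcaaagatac
Gm8210: ggcatcaagaaaccAcggtcgcaaagatac
The log2 fold change of Rpl29 was -6.14 in C2C12 cells over adipocytes and -6.79 in C2C12 cells over hepatocytes. With the copies summed, an alternative added after the data were seen, it was 0.28 (FDR 0.0187 by edgeR) and -0.36, so that the call in C2C12 cells over adipocytes turned round in sign and both fell short of 1.5-fold. Rpl34-ps1 (chr6:71124589-71125001), which differs from Rpl34 at 2 of 354 positions, and Gm10045 (chr17:29308138-29308620), which differs from Rpl21 at 7 of 483, also had counts in C2C12 cells alone beyond a handful. Rpl34-ps1 had 1486 to 1856 counts there and at most 5 elsewhere, and Gm10045 had 710 to 890 counts there and at most 2.15 elsewhere. Bases 118 to 147 of the coding sequence of Rpl34 and its copy hold the first difference of that pair.
Rpl34: aaagcacctaaatcTgcatgtggcgtgtgc
Rpl34-ps1: aaagcacctaaatcCgcatgtggcgtgtgc
The primary cells were C57BL6/J, the strain of the reference genome, and the strain of the C2C12 line was not given in the labels. The part of strain in these counts was not tested.

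**Figure D5:**
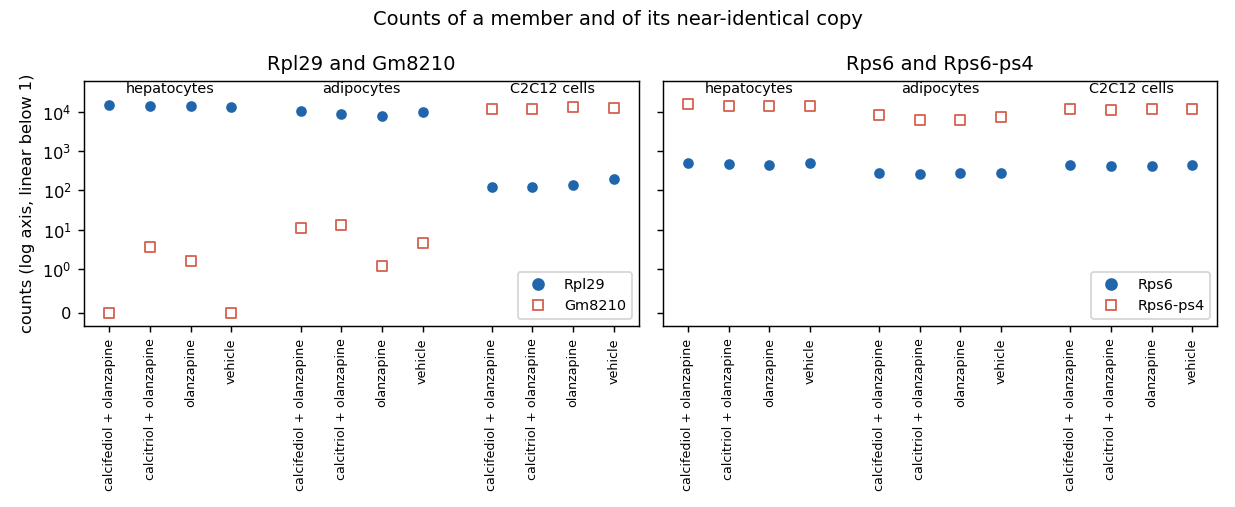
Counts per library (y axis, log scale, linear below 1) of Rpl29 and Rps6 (blue circles) and of their near-identical copies Gm8210 and Rps6-ps4 (open red squares) in the 12 libraries (x axis). Counts of the Rpl29 pair lie on Rpl29 in hepatocytes and adipocytes and on Gm8210 in C2C12 cells, while those of the Rps6 pair lie on Rps6-ps4 in every library.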

How the data were processed

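Per the labels, RNA of 12 cultures was sequenced, 1 library per cell type and treatment. The authors filtered reads with SOAPnuke, used HISAT 2.0.4 and Bowtie 2.2.5 with GRCm38.p6, and estimated expected counts and FPKM per gene with RSEM 1.2.8 before the tables were deposited, 1 table per cell type. Expected counts need not be whole (10.8% to 16.1% of the members' values were not) and were rounded for the tests. TPM was computed here from the deposited FPKM, and 12 TPM columns were not used.

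The members and gene lists were chosen with earlier results of these data known. Within a cell type, counts were scaled to the library total over genes with at least 1 TPM in any library, and compared without replicates; the Audic-Claverie rule of the study compares 2 libraries, not conditions. Across libraries, edgeR 4.0.16 in R 4.3.3 fitted cell type and treatment with 6 residual degrees of freedom, on library totals. Its p-values measure the spread between these libraries, which may be technical. Alternatives were TMM factors, DESeq2 1.42.0, other scalings and filters, leaving out each library, and summing near-identical copies found with BLAST 2.17.0. Named members were the P stalk and 5S particle genes, Rps6, Rps27a, Rpsa, Rps3, Rpl13a, Rpl32, paralogs, the 5 with the highest mean TPM, the 2 highest and 2 lowest of each comparison with at least 100 counts, up to 5 called per direction between cell types, and the 3 steadiest and 3 most variable. Some members that meet this rule are not reported here.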

Additional observations from a re-analysis of the deposited data

Results flagged for a closer look

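The median log2 ratio of the members had opposite signs in some cell types under the same comparison, and these differences were not tested, since each condition had 1 library. For calcifediol plus olanzapine over olanzapine, the median was -0.07 in C2C12 cells, against 0.14 in hepatocytes and 0.30 in adipocytes, a difference of -0.20 from hepatocytes and of -0.36 from adipocytes. For calcitriol plus olanzapine over olanzapine, it was 0.09 in adipocytes against -0.04 in hepatocytes (difference 0.14), and -0.15 in C2C12 cells against 0.09 in adipocytes (difference -0.25). For olanzapine over vehicle, it was -0.31 in adipocytes against 0.04 in hepatocytes (difference -0.35), and 0.06 in C2C12 cells against -0.31 in adipocytes (difference 0.37). With scaling to Rplp0, the 3 adipocyte medians and the C2C12 median for calcitriol plus olanzapine over olanzapine changed sign. That scaling moves all genes of a library alike, so the members kept their side of the median of all genes.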

How the results depend on the processing

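The 9 medians within a cell type kept their sign under TMM, median-of-ratios and TPM scaling, and under totals without the members or without the 20 most abundant genes. They also did under other filters and a larger pseudocount. Those settings kept nearly the same members and values, so they could hardly move a median. Scaling to Rplp0 gave, for calcifediol plus olanzapine, calcitriol plus olanzapine and olanzapine over vehicle in adipocytes, -0.0722, -0.103 and 0.0665. The medians of all genes under this scaling were -0.383, -0.22 and 0.349. The members had 0.0711 for calcifediol plus olanzapine and 0.12 for olanzapine in hepatocytes under it, and -0.157, 0.019 and 0.0065 for the 3 C2C12 comparisons. TPM gave 0.0725 for calcifediol plus olanzapine in hepatocytes, 0.20 for it and -0.22 for olanzapine in adipocytes, and -0.10 for calcitriol plus olanzapine in C2C12 cells. The shares with calcifediol, calcitriol, olanzapine alone and vehicle were, of TPM, 9.67%, 9.08%, 9.29% and 9.05% in hepatocytes, 8.68%, 7.95%, 7.54% and 8.69% in adipocytes and 13.4%, 12.8%, 13.9% and 13.7% in C2C12 cells. Without the 20 most abundant genes, they were 4.97%, 4.48%, 4.62% and 4.57%, then 3.61%, 3.19%, 2.98% and 3.61%, then 4.68%, 4.39%, 4.94% and 4.76%. At 1.5-fold in place of 2-fold, the rule for pairs of libraries called 1 member, Rpl37 with olanzapine in adipocytes, and over all genes 233, 175 and 107 in hepatocytes, 557, 245 and 349 in adipocytes and 2617, 2071 and 69 in C2C12 cells, against 62, 77, 39, 179, 115, 144, 1402, 1013 and 38 at 2-fold. Without a filter, it called 103, 124 and 70 genes in hepatocytes.

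Members lower in adipocytes over hepatocytes numbered 31 with TMM factors and 28 with DESeq2, against 52, and members higher in C2C12 cells over adipocytes 22 and 19, against 41, or 27.5% and 23.8% beside 32.3% and 30.4% of all genes, so that the excess over the background was lost. Members lower there numbered 2 with DESeq2 and 0 with copies summed, against 1. Leaving out 1 library gave 44 (beside 4269 of 13470 genes) to 54 (beside 4277 of 13507 genes) lower in adipocytes over hepatocytes. In C2C12 cells over adipocytes, it gave 39 (beside 5524 of 13470 genes) to 47 (beside 5520 of 13479 genes) higher. With TMM factors and with DESeq2, Rplp0 in adipocytes over hepatocytes became 0.0040 and 0.0251, against -0.15, and Rpl11 in C2C12 cells over adipocytes -0.16 and -0.21, against 0.12. Rpl29 there became 0.28 with copies summed, against -6.14. The causes were not tested. No paired analysis was possible because each condition had 1 library and so no replicate numbers to pair; cell type was a term of the model.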
